A study of Mus musculus with 15 samples.

Results

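The genes described here are the AP-1 and EGR immediate early factors Fos, Fosb, Fosl1, Fosl2, Jun, Junb, Jund, Atf3, Egr1 and Egr2. They were taken by symbol from the deposited count table, 10 of 24421 genes, and all 10 passed the filter on low counts that left 14421 genes for testing. The cells came from the MAP line, immortalized adipocyte progenitors of the mouse, and had been differentiated into adipocytes with insulin, isobutylmethylxanthine, dexamethasone and rosiglitazone, so every group, controls included, had already met rosiglitazone. From day 7 to 8 they were given vehicle, or rosiglitazone for 3 days (Rosi3D), or forskolin, for which the 4 h group is called FSK4h, the 1 day group FSK1D and the 3 day group FSK3D, with 3 libraries in each of the 5 groups. Forskolin activates adenylyl cyclase and so raises cAMP, and rosiglitazone activates PPARγ, a nuclear receptor that drives adipocyte gene expression. Doses, the hour at which vehicle cells were collected and the number of cultures behind each group are not stated in the labels. The p-values therefore measure the spread between libraries, which may be technical.

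AP-1 is a dimer of basic leucine zipper proteins. FOS proteins cannot pair with themselves and bind DNA together with a JUN partner, whereas JUN proteins also form dimers among themselves, and ATF3 joins the same network. EGR1 and EGR2 are zinc finger proteins that bind GC-rich sites. Most of these genes are immediate early genes, which are transcribed within minutes of a stimulus without new protein synthesis and whose mRNA is short-lived. Cyclic AMP reaches them through protein kinase A and CREB, a factor bound at cAMP response elements (CREs), while serum and growth factors act through MAP kinases, ELK factors and SRF.

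The sequences before the start sites of these genes are shown first, since cAMP is known to act on several of them there. RefSeq windows on GRCm38.p6, running from 250 bases before to 50 after a start site, matched 8 of the 10 genes with 12 windows, 5 of them for Egr2. Each was searched on both strands for the full CRE (TGACGTCA), the CRE core (TGACG, which the full CRE contains), an AP-1 site (TGANTCA), the octamer known from the Jun promoter (TGACATCA), an EGR site (GCGNGGGCG), the TATA box (TATAAA) and the serum response CArG box. The CRE core was present in 7 of the 12 windows, beside 20.8% of all 32851 windows of the same length. These belonged to 5 genes, Fos, Fosb, Junb, Atf3 and Egr2. The stretches of 30 bases that hold it follow in the direction of the gene, with the core in capitals. Its first base is counted from the RefSeq start site of the window. In Atf3 and in the second stretch of Egr2 it lies on the opposite strand and reads CGTCA.
Fos, -129: ggggcgtagagtTGACGacagagcgcccgc
Fos, -66: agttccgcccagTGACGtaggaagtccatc
Fosb, -60: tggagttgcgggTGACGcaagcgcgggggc
Junb, -106: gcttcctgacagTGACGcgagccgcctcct
Atf3, -7: ttaatagcattaCGTCAgcctgggattggt
Egr2, -111: aaattggccatgTGACGgcaaaagctgcca
Egr2, -55: tatgggcagcgaCGTCAcgggtattgaaga

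The Egr2 positions are those in the window chr10:67537619-67537918, and both cores also lie in 2 other windows of the gene that overlap it. No window of the 8 genes held the full CRE (in 1.79% of all windows) or the AP-1 site (7.81%). An EGR site was found in Fosb and Fosl2, in 2 of the 12 windows (5.55% of all windows). The CArG box was found in Egr2 alone, in 4 windows (1.63%). TATAAA was found in Fos and Junb, in 2 windows (13.6%), in Junb from the first base of the RefSeq transcript. The Jun octamer occurred in the window of Jun alone among the 8 genes (3.62% of all windows) and is shown in capitals. It was added to the search after the sequences had been seen.
Jun, -45: aaagcctcggggTGACATCAtgggctattt

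Fos and Junb, 2 genes with steep rises at 4 h, are shown over the 250 bases before the start site to place the cores against it, with CRE cores in capitals. The Fos stretch is chr12:85473640-85473889 on the plus strand and the Junb stretch chr8:84978749-84978998 on the minus strand. Both are written in the direction of transcription and end just before the RefSeq start site. The gene positions given below are from GENCODE vM21, where a start can differ. That of Junb is 84978748 in RefSeq and 84978718 in GENCODE, and that of Atf3 191183333 and 191218039.
Fos, 250 bases: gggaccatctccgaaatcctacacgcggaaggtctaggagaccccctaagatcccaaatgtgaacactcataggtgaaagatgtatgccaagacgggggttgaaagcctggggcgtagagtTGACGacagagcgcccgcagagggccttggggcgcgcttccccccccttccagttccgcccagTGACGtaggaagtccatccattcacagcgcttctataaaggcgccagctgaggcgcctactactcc
Junb, 250 bases: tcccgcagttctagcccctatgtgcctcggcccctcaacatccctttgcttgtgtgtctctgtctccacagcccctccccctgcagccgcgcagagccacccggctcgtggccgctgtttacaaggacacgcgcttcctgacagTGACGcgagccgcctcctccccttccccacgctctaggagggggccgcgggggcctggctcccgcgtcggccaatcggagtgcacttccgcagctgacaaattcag

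The 5 genes with a CRE core in the window had log2 fold changes of 1.67 to 2.66 at 4 h, and the other 3 with a window, Fosl2, Jun and Jund, had 1.06, 0.61 and 0.20. Fosl1 and Egr1 had no window, and their values were 2.79 and 0.49. The Jund window is set on the RefSeq start at 70697739. It does not reach the GENCODE start at 70698949, so sequence before that start was not searched. A match describes the letters only, and its part in these values was not tested.

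Library totals ran from 14056200 to 56282582 counts, and the smallest library was in FSK3D. The share of counts on the ribosomal RNA precursor Rn45s was 8.50% to 8.57% in vehicle and 8.53% to 8.87% after 4 h of forskolin. It was 7.11% to 8.21% after 1 day and 4.15% to 5.79% after 3 days of forskolin, and 6.27% to 7.24% after rosiglitazone. Summed over 10 adipocyte markers such as Adipoq and Fabp4, levels were 8867 to 10244 CPM with vehicle, 9643 to 11157 after 4 h, 7213 to 7944 after 1 day and 15434 to 15685 after 3 days of forskolin, and 20584 to 21911 after rosiglitazone. CPM is the count per 1000000 after scaling by the trimmed mean of M values (TMM). The 9 progenitor markers summed to 743 to 793 CPM with vehicle, 689 to 770.5 at 4 h and 943 to 989 at 1 day of forskolin, and 383 to 425 in Rosi3D. The 8 macrophage and leukocyte markers were low and moved with forskolin, with sums of 4.69 to 5.06 CPM in vehicle, 9.95 to 11.8 at 4 h, 10.4 to 11.8 at 1 day, 5.18 to 6.10 at 3 days and 3.08 to 4.40 with rosiglitazone. Of these Csf1r (1.67 ± 0.28 at 4 h, 1.93 ± 0.28 at 1 day, 1.02 ± 0.30 at 3 days, as log2 fold change against vehicle ± standard error) and Cd14 (1.40 ± 0.20 at 4 h and 1.68 ± 0.20 at 1 day) rose, while Ptprc was at no count in FSK1D and FSK3D and Adgre1 at no count in the 3 forskolin groups. With bulk RNA, a smaller number of cells of one type and less RNA per cell cannot be told apart.

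After 4 h of forskolin 9 of the 10 genes were higher than in vehicle and none was lower, 7 of them by at least 2-fold. The rises were largest in Fosl1 (2.79 ± 0.12), Junb (2.66 ± 0.0751), Fosb (2.64 ± 0.35), Atf3 (2.58 ± 0.12) and Fos (2.27 ± 0.15), given as log2 fold change ± standard error (SE). Every gene had its highest mean in FSK4h, and the 3 FSK4h libraries lay above the 3 vehicle libraries for all 10 genes, as they did or lay below for 65% of all tested genes. Across all tested genes 28.4% were called higher, 30.7% lower and 5.44% higher by at least 2-fold, a call being an adjusted p under 0.05 in edgeR's quasi-likelihood test with Benjamini-Hochberg adjustment over 14421 genes. The median over the 10 genes was 1.97, beside -0.0349 over all tested genes. Scaling by library size in place of TMM moved the median over all genes at 4 h to -0.23 and the calls over all genes to 2519 higher and 6708 lower in place of 4093 and 4421, and the same 9 of the 10 genes were called higher. The summed macrophage and leukocyte markers were also higher at 4 h, as given above, and their part in the rises was not tested.

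**Figure D1:**
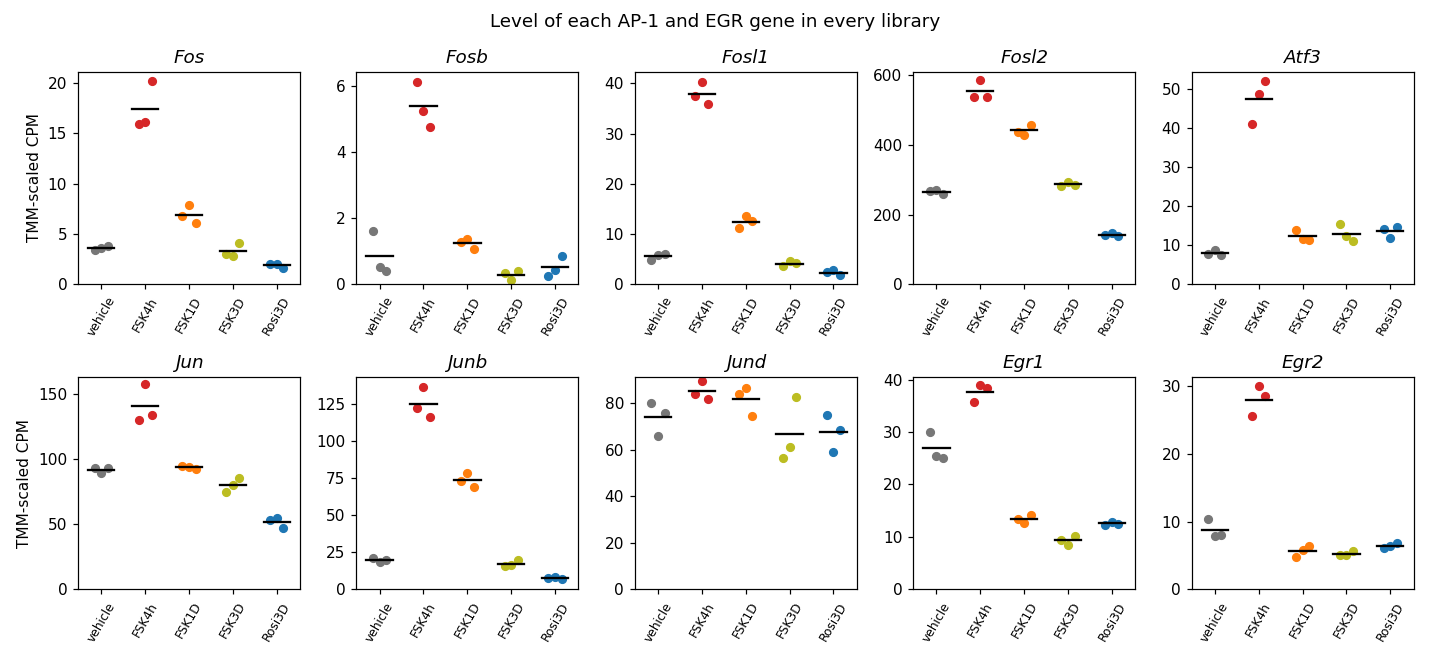
TMM-scaled CPM (y axis, from 0) of the 10 genes in every library, by group (x axis), where each point is 1 library and the line the mean of 3. All 10 genes have their highest mean in FSK4h, from 5.38 CPM for Fosb to 554 CPM for Fosl2.

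Among the FOS genes, Fos (chromosome 12, 85473890 to 85477273, plus strand, GRCm38) encodes the prototype of the family. Its level was 3.43, 3.61 and 3.78 CPM with vehicle, 16.0, 16.1 and 20.2 after 4 h of forskolin, 6.73, 7.84 and 6.12 after 1 day, 3.02, 2.81 and 4.10 after 3 days and 2.02, 2.04 and 1.63 after rosiglitazone. FSK4h and FSK1D libraries lay above all vehicle libraries, FSK3D libraries overlapped with vehicle and Rosi3D libraries lay below. Against vehicle the change was 2.27 ± 0.15, adjusted p = 2.28e-15 at 4 h and 0.94 ± 0.15, adjusted p = 5.93e-06 at 1 day. At 3 days of forskolin the difference was not called (-0.0841 ± 0.17, 95% interval -0.43 to 0.26, not adjusted over genes), and Fos was lower after rosiglitazone (-0.91 ± 0.18, adjusted p = 3.47e-05).

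Fosb (chromosome 7, 19302696 to 19310051, minus strand) encodes FOSB and a truncated splice form, which a gene-level count cannot separate. It was the least abundant of the 10 genes, with 52, 16 and 11 counts in the vehicle libraries S1, S2 and S3, 223, 130 and 132 in FSK4h, 35, 36 and 28 in FSK1D, 8, 2 and 12 in FSK3D and 14, 9 and 22 in Rosi3D. The FSK4h libraries stood apart from all others, and within vehicle S1 held most of the counts. Fosb rose at 4 h (2.64 ± 0.35, adjusted p = 3.12e-07), and without vehicle S1 the rise was 3.53. All 4 comparisons of Fosb with vehicle moved by over 1.5-fold without S1. At 1 day the difference was not called (0.52 ± 0.40, 95% interval -0.30 to 1.33) but was called without S1 (1.41, adjusted p = 0.00655). At 3 days of forskolin Fosb was called lower (-1.48 ± 0.52, adjusted p = 0.0184), a call lost without vehicle S1 (-0.58, adjusted p = 0.374), FSK3D S10 (-1.51, adjusted p = 0.0539) or FSK3D S11 (-1.25, adjusted p = 0.0649). In Rosi3D it was not called (-0.91 ± 0.45, adjusted p = 0.0850), but was with no filter beyond 1 count (-0.90, adjusted p = 0.0232) and without vehicle S2 (-1.15, adjusted p = 0.0351), vehicle S3 (-1.20, adjusted p = 0.0196) or Rosi3D S15 (-1.49, adjusted p = 0.00917), while without vehicle S1 the value was close to 0 (-0.00286).

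Fosl1 (chromosome 19, 5447547 to 5455946, plus strand) encodes FRA-1, which lacks the strong activation domain of FOS. Its level was 4.72, 5.84 and 5.94 CPM with vehicle, 37.5, 40.4 and 35.9 after 4 h of forskolin, 11.2, 13.6 and 12.6 after 1 day, 3.63, 4.52 and 4.14 after 3 days and 2.34, 2.79 and 1.75 after rosiglitazone. No 2 groups overlapped, in the order FSK4h, FSK1D, vehicle, FSK3D and Rosi3D. The change against vehicle was 2.79 ± 0.12, adjusted p = 1.64e-20 at 4 h, 1.18 ± 0.12, adjusted p = 6.10e-10 at 1 day and -0.44 ± 0.14, adjusted p = 0.00992 at 3 days. The call at 3 days was lost without vehicle S3 (-0.37, adjusted p = 0.0510) or FSK3D S10 (-0.35, adjusted p = 0.0745). It was lower still after rosiglitazone (-1.26 ± 0.15, adjusted p = 3.61e-09). Fosl1 overlaps Ccdc85b on the opposite strand, and Ccdc85b also rose at 4 h (1.96 ± 0.0927, from 15.9 ± 1.81 to 61.7 ± 6.26 CPM, n = 3). The sources used here do not say whether counting used strand, so the values of both genes are uncertain. In GENCODE vM21 Jun, Jund and Atf3 are also overlapped on the opposite strand, by Junos, Gm11175 and Gm24748. These are not among the counted genes, and their part in the counts was not tested.

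Fosl2 (chromosome 5, 32135801 to 32157842, plus strand) encodes FRA-2, the second FRA protein, and was the most abundant of the 10 genes. Its level was 267, 269 and 259 CPM with vehicle, 537, 588 and 538 after 4 h of forskolin, 438, 429 and 459 after 1 day, 282, 294 and 286 after 3 days and 141, 146 and 139 after rosiglitazone. The groups did not overlap, and unlike Fosl1 the FSK3D libraries lay above vehicle. Fosl2 changed by 1.06 ± 0.0440, adjusted p = 1.31e-20 at 4 h and by 0.74 ± 0.0439, adjusted p = 6.47e-16 at 1 day, with narrow errors at counts of 3132 to 19533 per library. The rise at 3 days was small (0.12 ± 0.0441, adjusted p = 0.0241) and was not called without vehicle S3 (0.11, adjusted p = 0.0656). After rosiglitazone it fell (-0.90 ± 0.0448, adjusted p = 2.05e-18).

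Among the JUN genes, Jun (chromosome 4, 95049034 to 95052222, minus strand), whose product is the main target of the JNK kinases in this family, was at 92.8, 89.4 and 93.1 CPM with vehicle, 130.0, 157 and 134 after 4 h of forskolin, 94.8, 93.4 and 92.0 after 1 day, 74.4, 79.8 and 85.1 after 3 days and 53.0, 54.6 and 46.8 after rosiglitazone. Its FSK4h libraries were the highest and its Rosi3D libraries the lowest, while FSK1D overlapped with vehicle. Jun changed by 0.61 ± 0.0618, adjusted p = 4.28e-10 at 4 h, was not called at 1 day (0.0262 ± 0.0625, 95% interval -0.10 to 0.15), and fell by 0.20 on the log2 scale at 3 days of forskolin (adjusted p = 0.00847, and 0.0991 without FSK3D S10). The fall after rosiglitazone was larger (-0.83 ± 0.0641, adjusted p = 6.82e-13).

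Junb (chromosome 8, 84974484 to 84978718, minus strand) encodes a weaker activator than JUN that can oppose it. Its level was 20.9, 18.6 and 19.7 CPM with vehicle, 122, 136 and 116 after 4 h of forskolin, 73.0, 78.3 and 68.8 after 1 day, 16.0, 16.3 and 19.6 after 3 days and 7.62, 8.22 and 7.16 after rosiglitazone. FSK4h and FSK1D stood far above vehicle, FSK3D overlapped with vehicle, and Rosi3D lay below. The rise was 2.66 ± 0.0751, adjusted p = 4.27e-25 at 4 h and 1.89 ± 0.0752, adjusted p = 1.55e-20 at 1 day. At 3 days the difference was -0.18 ± 0.0835, adjusted p = 0.0727, and was called without FSK3D S12 (-0.29, adjusted p = 0.00845) and with library size alone (-0.19, adjusted p = 0.0446). It was lower after rosiglitazone (-1.37 ± 0.0891, adjusted p = 3.47e-15), to a mean of 7.67 against 19.7 CPM. In GENCODE vM21 Junb overlaps Prdx2 on the opposite strand, in the RefSeq models it does not, and its length in the deposited table equals the RefSeq span of 1840 bases. Prdx2 changed by 0.43 ± 0.0495 at 4 h.

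Jund (chromosome 8, 70698949 to 70700616, plus strand) is known as the JUN gene expressed in most cells without a stimulus. Its level was 80.2, 65.8 and 75.9 CPM with vehicle, 84.1, 89.6 and 82.0 after 4 h of forskolin, 83.8, 86.8 and 74.5 after 1 day, 56.5, 61.3 and 82.5 after 3 days and 74.9, 59.2 and 68.6 after rosiglitazone. Neighbouring groups overlapped throughout the order of its means. No treatment was called against vehicle, with 0.20 ± 0.14 at 4 h (95% interval -0.0978 to 0.51), 0.14 ± 0.14 at 1 day, -0.14 ± 0.14 at 3 days and -0.12 ± 0.14 in Rosi3D. The 4 h difference was called when only the 2 groups were fitted (0.22, adjusted p = 0.00485) and with no filter beyond 1 count (0.21, adjusted p = 0.00117), which also called it at 1 day (0.16, adjusted p = 0.0276). At 3 days it was called lower without FSK3D S12 (-0.33, adjusted p = 0.0118), the library with the highest Jund level of that group.

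**Figure D2:**
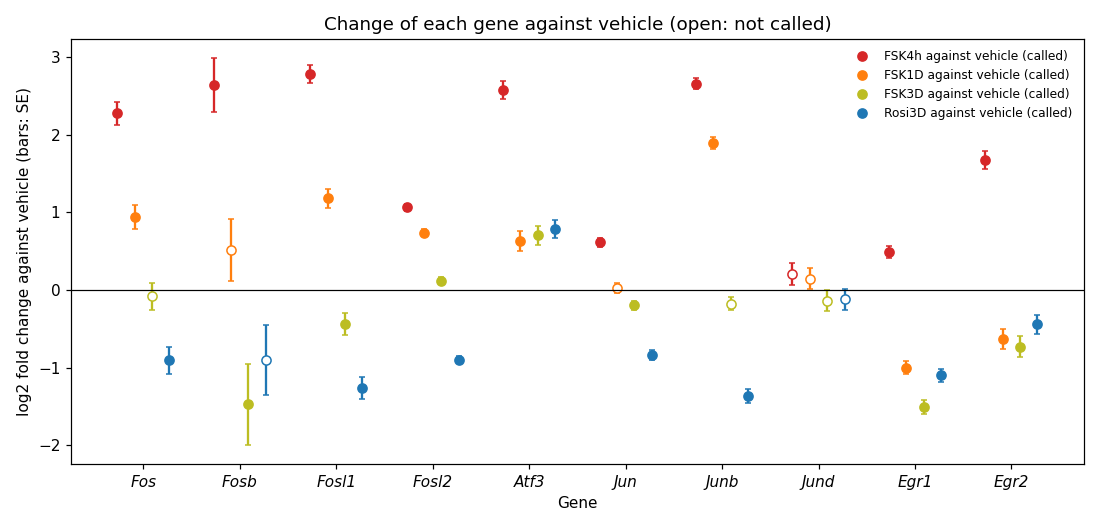
Log2 fold change against vehicle (y axis, bars are SE) of the 10 genes (x axis) for the 4 treatments, filled where called and open where not. All values at 4 h lie above 0, from 0.20 in Jund (open) to 2.79 in Fosl1, and after rosiglitazone all but that of Atf3 (0.78) lie below.

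Atf3 (chromosome 1, 191170296 to 191218039, minus strand), a stress-induced factor whose homodimer represses transcription, was above vehicle under every treatment. Its level was 7.62, 8.73 and 7.37 CPM with vehicle, 41.1, 48.8 and 52.2 after 4 h of forskolin, 13.9, 11.5 and 11.4 after 1 day, 15.3, 12.3 and 11.04 after 3 days and 14.1, 11.8 and 14.8 after rosiglitazone. All treated libraries lay above all vehicle libraries, and the FSK1D, FSK3D and Rosi3D groups overlapped with each other. It rose by 2.58 ± 0.12, adjusted p = 7.70e-18 at 4 h, 0.63 ± 0.12, adjusted p = 1.27e-04 at 1 day and 0.70 ± 0.13, adjusted p = 2.48e-05 at 3 days of forskolin. It was the only one of the 10 genes called higher after rosiglitazone (0.78 ± 0.12, adjusted p = 1.98e-06). The difference between FSK3D and Rosi3D was not called (-0.0820 ± 0.12, 95% interval -0.33 to 0.16).

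The EGR genes rose at 4 h and were below vehicle afterwards. Egr1 (chromosome 18, 34859823 to 34864984, plus strand), the best known of the growth factor-induced EGR genes, was at 30.1, 25.5 and 25.0 CPM with vehicle, 35.7, 38.9 and 38.4 after 4 h of forskolin, 13.4, 12.7 and 14.2 after 1 day, 9.46, 8.50 and 10.1 after 3 days and 12.3, 12.9 and 12.5 after rosiglitazone. Vehicle libraries lay between FSK4h and all other groups, and S1 was the highest of the vehicle libraries for Egr1, Egr2 and Fosb alike. The change was 0.49 ± 0.0810, adjusted p = 4.06e-06 at 4 h, -1.002 ± 0.0873, adjusted p = 1.24e-11 at 1 day, -1.51 ± 0.0927, adjusted p = 1.80e-15 at 3 days and -1.10 ± 0.0869, adjusted p = 4.09e-13 in Rosi3D.

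Egr2 (chromosome 10, 67535475 to 67542188, plus strand), also known as Krox20 and for its role in myelination and early adipogenesis, was at 10.3, 7.88 and 8.03 CPM with vehicle, 25.5, 30.1 and 28.5 after 4 h of forskolin, 4.803, 5.75 and 6.43 after 1 day, 5.06, 5.07 and 5.63 after 3 days and 6.16, 6.41 and 6.85 after rosiglitazone. FSK4h libraries lay above all vehicle libraries, and FSK1D, FSK3D and Rosi3D lay below all vehicle libraries. The change was 1.67 ± 0.11, adjusted p = 1.04e-14 at 4 h, -0.63 ± 0.13, adjusted p = 1.23e-04 at 1 day and -0.73 ± 0.13, adjusted p = 1.75e-05 at 3 days. After rosiglitazone it was -0.45 ± 0.12, adjusted p = 0.00233, a call lost without vehicle S1 (-0.28, adjusted p = 0.0667).

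Counted together, 5 of the 10 genes were higher and 2 lower after 1 day of forskolin, beside 19.5% and 20.7% of all tested genes. In FSK1D the summed progenitor, macrophage and leukocyte markers lay above all vehicle libraries and the summed adipocyte markers below them. Not all markers of a list moved with its sum. Of 7 tested progenitor markers 3 were higher and 1 lower, and of 3 tested macrophage and leukocyte markers 2 and 0. Of 10 adipocyte markers 1 was higher and 4 lower, with the largest fall in Adipoq (-1.14 ± 0.0466). At 3 days 2 of the 10 AP-1 and EGR genes were higher and 5 lower, beside 25.9% and 27%. Without FSK3D S10 the latter count was 2 higher and 2 lower. Rosiglitazone gave 1 higher and 7 lower, beside 28.6% and 32%. The 4 treatments were set against the same vehicle libraries. In Rosi3D the progenitor markers were also lower and the adipocyte markers higher than in vehicle, at the sums given above. The Rn45s share was lower than in vehicle in every FSK1D, FSK3D and Rosi3D library, and in FSK3D the adipocyte marker sum was higher. The part of these markers and of Rn45s in the counts was not tested.

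Levels of different genes were compared per kilobase of the gene length in the deposited table. Summed over the FOS family they were 50.4 ± 0.840 CPM per kb (SD, n = 3) with vehicle, 127 ± 5.66 after 4 h, 86.3 ± 2.19 after 1 day and 53.1 ± 1.21 after 3 days of forskolin, and 26.6 ± 0.916 after rosiglitazone. Fosl2 made up most of this sum in every group, with 89.7% ± 0.647 in vehicle, 74.7% ± 0.612 in FSK4h and 92.4% ± 0.703 in FSK3D. At 4 h Fosl1 made up 17.6% ± 0.484 and Fos 6.60% ± 1.06, against 6.41% ± 0.803 and 3.42% ± 0.201 in vehicle, and Fosb stayed at or below 1.32% in every library.

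The JUN family summed to 65.2 ± 3.78 CPM per kb with vehicle, 141 ± 11.4 after 4 h, 97.6 ± 4.98 after 1 day and 57.6 ± 7.47 after 3 days of forskolin, and 43.8 ± 2.61 after rosiglitazone. The share of Junb was 16.4% ± 0.257 with vehicle, 47.9% ± 0.692 after 4 h, 40.8% ± 0.760 after 1 day and 16.3% ± 0.431 after 3 days of forskolin, and 9.55% ± 0.934 after rosiglitazone. Jund made up 39.3% ± 1.69 in vehicle and 53.5% ± 4.13 in Rosi3D, and Jun 44.2% ± 1.69 and 36.9% ± 3.23. No test was run on these shares. An exact rank test of 3 libraries against 3 cannot give a two-sided p below 0.1. The shares depend on the gene models. The table gives Jund 2878 bases, its whole RefSeq span, where GENCODE vM21 has 1668 exon bases. With GENCODE exon lengths, an alternative chosen after the data were seen, the share of Junb was 10.5% in vehicle and 36.3% in FSK4h, and Jund stood above Jun in vehicle (54.2% and 35.3%) where the table's lengths put Jun above Jund. Fosl2 stayed the main FOS gene with either set, at 68.0% in FSK4h with GENCODE lengths.

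**Figure D3:**
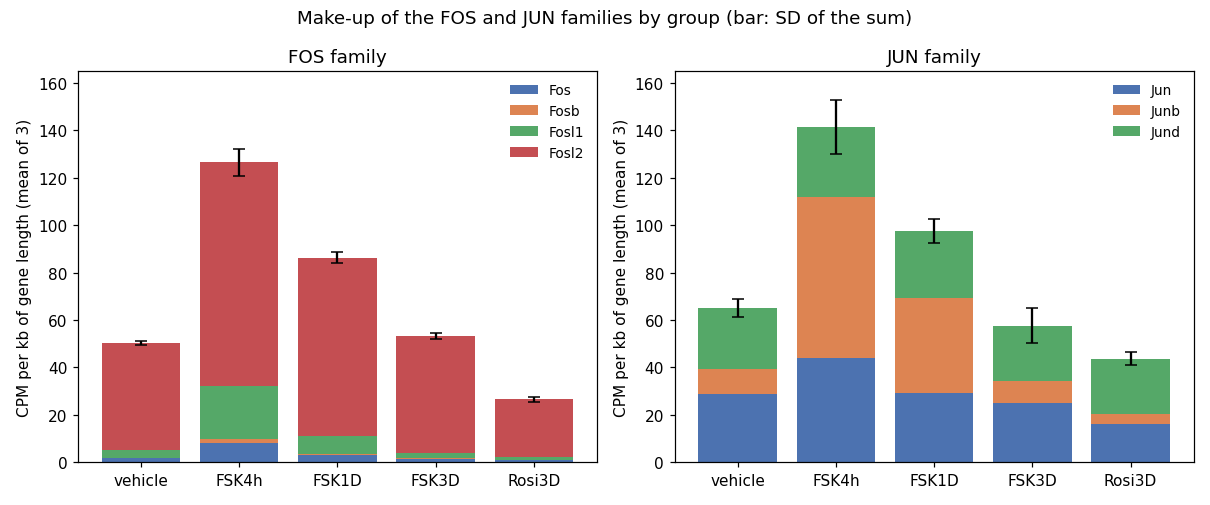
Mean CPM per kb of gene length (y axis, from 0) of the FOS genes (left) and JUN genes (right), stacked by group (x axis), with the SD of the summed level over 3 libraries as the error bar. The sums are highest in FSK4h, at 127 and 141, where Junb widens from 10.7 in vehicle to 67.8.

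The forskolin times were then compared with each other, which asks how far levels had changed after 4 h. No time before 4 h was sampled, so an earlier peak and its decay could not be seen. From 4 h to 1 day 9 of the 10 genes fell and none rose, beside 28.9% of all tested genes called lower and 28.4% higher. The falls were steepest in Egr2 (-2.31 ± 0.12), Fosb (-2.12 ± 0.34) and Atf3 (-1.95 ± 0.11) and smallest in Fosl2 (-0.33 ± 0.0434), Jun (-0.58 ± 0.0620) and Junb (-0.76 ± 0.0681). Jund did not pass the test (-0.0604 ± 0.14, and 0.10 with library size alone). Scaling by library size alone moved the all-gene median to 0.17 in this comparison and the calls over all genes to 5974 higher and 2709 lower in place of 4096 and 4164.

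From 1 to 3 days 7 genes fell and none rose, beside 25.8% and 25.2%. Here Junb fell the most (-2.07 ± 0.0785, adjusted p = 1.21e-20), followed by Fosb (-1.99 ± 0.50), Fosl1 (-1.62 ± 0.13) and Fos (-1.02 ± 0.16). Atf3 (0.0718 ± 0.12, 95% interval -0.18 to 0.32) and Egr2 (-0.0973 ± 0.14, -0.38 to 0.19) were not called, so that in these 2 genes the fall that was detected lay between 4 h and 1 day. Jund was not called either (-0.28 ± 0.14), but was without FSK3D S12 (-0.49, adjusted p = 6.23e-04) and with no filter beyond 1 count (-0.29, adjusted p = 1.19e-05). From 4 h to 3 days all 10 were lower, beside 33.5% of all tested genes called lower and 35% higher. Scaled by library size alone, the all-gene median was 0.20 here and the calls were 6558 higher and 3523 lower in place of 5045 and 4836. For Jund this call was narrow (-0.34 ± 0.14, adjusted p = 0.0477) and was lost under several settings, among them library size alone (-0.16, adjusted p = 0.282) and leaving out FSK4h S4, S5 or S6 or FSK3D S10 or S11, over which its adjusted p reached 0.158.

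Forskolin and rosiglitazone were compared at 3 days, the 1 time at which both were sampled. Forskolin-treated cells had more Junb (1.19 ± 0.0926, adjusted p = 8.53e-13), Fosl2 (1.02 ± 0.0450, adjusted p = 2.29e-19), Fosl1 (0.83 ± 0.16, adjusted p = 5.70e-05), Fos (0.82 ± 0.18, adjusted p = 3.71e-04) and Jun (0.63 ± 0.0652, adjusted p = 1.19e-09) than rosiglitazone-treated cells. Egr1 was lower (-0.41 ± 0.0972, adjusted p = 8.37e-04). These 5 higher and 1 lower genes of 10 stand beside 22.5% and 20.7% of all tested genes. Egr2 (-0.28 ± 0.14, 95% interval -0.56 to -0.00900), Fosb (-0.57 ± 0.57, -1.74 to 0.61), Atf3 and Jund (-0.0143 ± 0.14, -0.32 to 0.30) were not called. For Junb, Fos and Fosl1 the FSK3D level was near or below vehicle and the Rosi3D level lower still, as their values above show. Progenitor markers summed to 732 to 805 CPM in FSK3D and 383 to 425 in Rosi3D, and their part in the difference was not tested.

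Relatives of these genes moved in both directions. Of 14 tested other AP-1 and related bZIP genes, 7 rose and 6 fell at 4 h, with a median of 0.14 beside -0.0349 over all genes, the value beside every list at 4 h below. The counts of this and the following lists stand beside 28.4% of all tested genes called higher and 30.7% lower at 4 h, 19.5% and 20.7% at 1 day, 25.9% and 27% at 3 days, and 28.6% and 32% with rosiglitazone. The small MAF protein gene Maff rose by 2.44 ± 0.0972, from 24.0 ± 0.759 to 130.5 ± 18.1 CPM (SD, n = 3). At low counts, Batf3 rose by 1.90 ± 0.60 (18 counts over the vehicle libraries and 66 over FSK4h) and Nfe2 by 0.84 ± 0.31 (103 and 182). Maf (-1.09 ± 0.0664) and Jdp2 (-1.63 ± 0.11) were among those that fell. Jdp2 encodes a dimer partner of JUN that represses AP-1 sites, and went from 17.8 ± 0.833 to 5.76 ± 0.255 CPM, with 13.05 ± 1.48 at 1 day and 17.4 ± 1.61 at 3 days. At 1 day 3 of the list were higher and 4 lower, at 3 days 3 and 3, and in Rosi3D 3 and 4, shares near those of all tested genes.

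EGR relatives and their NAB corepressors had 7 higher and 0 lower of 11 tested genes at 4 h, with a median of 0.47, led by Klf10 (1.62 ± 0.0552), Klf4 (1.54 ± 0.0701) and Egr3 (0.85 ± 0.19). At 1 day 5 were higher and 3 lower, with Klf10 at 1.06 ± 0.0552 and Klf5 at -1.42 ± 0.33. At 3 days 2 were higher, Klf10 (0.59 ± 0.0560) and Sp3 (0.39 ± 0.0668), and 5 lower, with Klf5 at -1.41 ± 0.34 and Egr3 at -1.39 ± 0.23. In Rosi3D 2 were higher, Sp3 (0.35 ± 0.0664) and Klf10 (0.16 ± 0.0558), and 6 lower, with Egr3 at -1.95 ± 0.23. Egr3 was thus called in the same directions as Egr1 and Egr2 at 4 h, at 3 days and after rosiglitazone. At 1 day, when both fell, Egr3 was not called (0.16 ± 0.20).

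In a list of 34 other immediate early genes, which holds the NR4A receptors and other known cAMP-responsive genes, 27 rose and 4 fell at 4 h, with a median of 1.06 beside -0.0349 over all genes. The largest rises were in the orphan receptor genes Nr4a3 (7.63 ± 0.19) and Nr4a1 (3.69 ± 0.0877) and in Ier3 (4.36 ± 0.0944), a survival gene that went from 7.64 ± 0.611 to 157 ± 17.1 CPM. Npas4 (-2.38 ± 0.80, 44 counts over the vehicle libraries), the growth arrest gene Gadd45a (-0.95 ± 0.14) and the kinase gene Plk2 (-0.89 ± 0.0836) fell. At 1 day 16 were higher and 7 lower, and at 3 days 12 and 14. After rosiglitazone 3 were higher and 27 lower, among them Ptgs2, the inducible cyclooxygenase (-2.21 ± 0.15), with a median of -0.59 beside -0.0116 over all genes. Between FSK3D and Rosi3D 24 were higher with forskolin and 4 lower, beside 22.5% and 20.7% of all tested genes.

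**Figure D4:**
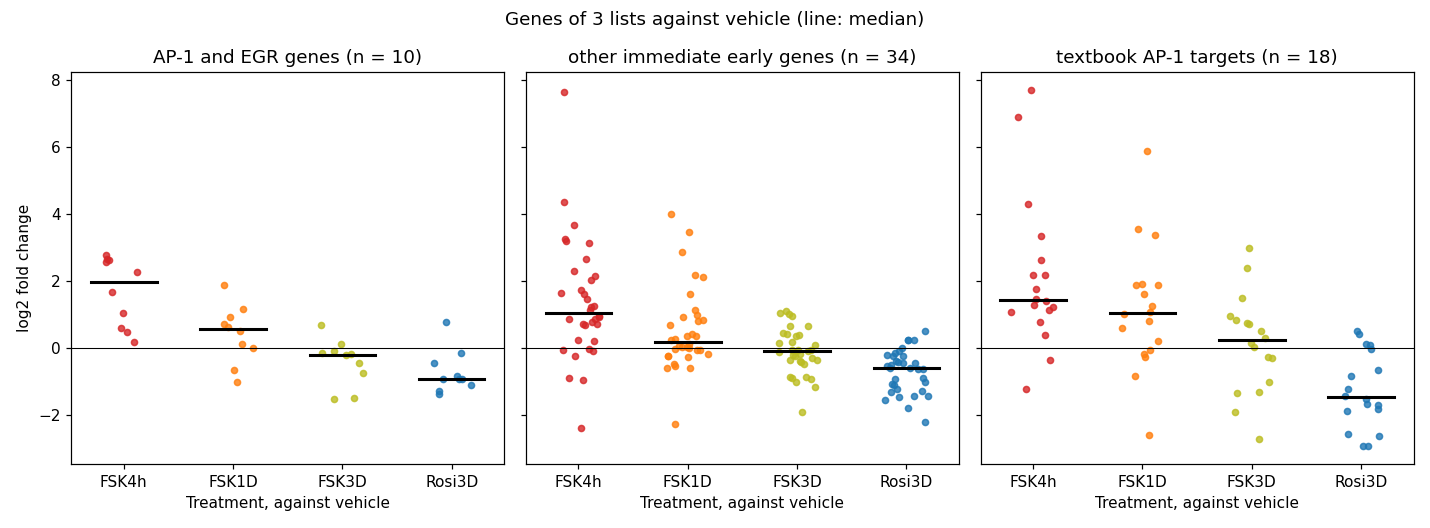
Log2 fold change against vehicle (y axis) of the AP-1 and EGR genes, 34 other immediate early genes and 18 textbook AP-1 targets, by treatment (x axis), where each point is 1 tested gene and the line the median. The medians run from 1.97, 1.06 and 1.44 in FSK4h to -0.90, -0.59 and -1.46 in Rosi3D.

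Textbook AP-1 targets had 15 higher and 1 lower of 18 tested genes at 4 h, 12 and 3 at 1 day, 8 and 6 at 3 days and 1 and 12 in Rosi3D, with medians of 1.44 at 4 h and -1.46 in Rosi3D. Areg, an EGF receptor ligand, had 495 counts over the FSK4h libraries against 2 in vehicle, a ratio of 252 with an exact 95% counting interval of 44.7 to 9975. The cytokine genes Il6 (6.90 ± 0.25) and Lif (4.31 ± 0.13) followed. Ccnd1, the gene of cyclin D1, was the 1 target that fell at 4 h (-1.22 ± 0.0894) and stayed below vehicle at 3 days (-2.70 ± 0.10). The collagenase gene Mmp13 was not called at 4 h (0.79 ± 0.37) and rose by 1.26 ± 0.35 at 1 day and 3.01 ± 0.32 at 3 days, from 0.588 ± 0.195 to 4.73 ± 0.506 CPM. After rosiglitazone Hbegf, another EGF receptor ligand (-2.91 ± 0.15), and the protease inhibitor gene Timp1 (-2.90 ± 0.0970) fell the most. The part of AP-1 in the changes of these genes was not tested.

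Of 11 tested textbook EGR1 targets, which share Tgfb1 with the AP-1 targets and Nab2 with the EGR list, 6 were higher and 2 lower at 4 h, 2 and 3 at 1 day, 1 and 7 at 3 days and 1 and 8 in Rosi3D, with medians of 0.23 at 4 h and -0.64 in Rosi3D. Fgf2 rose at 4 h (2.32 ± 0.12), while the tissue factor gene F3 (-1.62 ± 0.12) fell. At 3 days of forskolin Thbs1, which encodes thrombospondin, was at -1.62 ± 0.0874. The part of EGR1 in the changes of these genes was likewise not tested.

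The pathways that feed these factors were read only as mRNA. Among CREB and its coactivators 2 of 7 rose at 4 h, Crtc2 (0.53 ± 0.0660) and Atf1 (0.17 ± 0.0568), and 0 fell, with a median of 0.0615, beside 28.4% of all tested genes called higher and 30.7% lower, so that the share of rises is that of the background. In the SRF, ELK and MRTF list 3 of 9 rose, led by Elk3 (0.70 ± 0.0519), and 5 fell, led by Mef2c (-1.92 ± 0.29) and including Srf itself (-0.32 ± 0.0624), with a median of -0.13. Of 17 MAP kinase pathway genes 9 rose, with Map2k1 at 1.05 ± 0.0494 and Map2k4 at 0.82 ± 0.0492, and 5 fell, with the JNK3 gene Mapk10 at -1.78 ± 0.56 and a median of 0.22. Phosphorylation, through which these pathways act, was not measured.

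Stress genes were described beside Atf3. In a list of 9 genes around ATF4 and ATF3 7 were higher and 0 lower at 4 h, 6 and 0 at 1 day, 8 and 0 at 3 days and 9 and 0 in Rosi3D, with medians of 0.58 at 4 h and 0.40 in Rosi3D. The eIF2α phosphatase subunit gene Ppp1r15a rose by 1.28 ± 0.0971 at 4 h, and Trib3 by 1.90 ± 0.0916 at 3 days of forskolin and 1.20 ± 0.0916 in Rosi3D. Of 9 heat shock genes, which also answer to handling of cells, 6 rose and 2 fell at 4 h, with a median of 0.59. Hsph1 (1.37 ± 0.0543) and Dnajb1 (0.84 ± 0.0582) were higher, and the stress-inducible Hspa1a (-0.47 ± 0.21) and Hspa1b (-0.54 ± 0.0950) were lower. The part of heat shock genes in the 4 h rise of the AP-1 and EGR genes was not tested.

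Likeness between genes was described by Pearson's r over the 15 libraries on log2 CPM with a prior count of 2. The libraries share their groups, so r follows the group means, and no p was attached. Among pairs of the 10 genes r ran from 0.363 for Jund and Atf3 to 0.987 for Fos and Fosl1, and was 0.890 for Egr1 and Egr2. Of 5728 other genes whose group means spanned at least 1 on that scale, the most like Fos were Krt13 (r = 0.987), Clcf1 (r = 0.986) and Cdr2l (r = 0.985). For Fosl2 they were Errfi1 (r = 0.995), Runx1 (r = 0.995) and Timp1 (r = 0.994), and for Junb Hsp90b1 (r = 0.992), Mthfd1l (r = 0.991) and Gem (r = 0.990). Fosl1 was closest to Sema7a (r = 0.990), Arid3a (r = 0.989) and Has1 (r = 0.986) and Fosb to Abt1 (r = 0.9499), Hsp90aa1 (r = 0.939) and Vgf (r = 0.936). The genes most like Jun were Pxn (r = 0.981), Vasn (r = 0.979) and Smad7 (r = 0.977), those most like Atf3 Slc3a2 (r = 0.977), Hk2 (r = 0.971) and Tiparp (r = 0.970). Egr1 was nearest to Clcn5 (r = 0.984), Adamts1 (r = 0.983) and Rbm19 (r = 0.980) and Egr2 to Mdn1 (r = 0.987), Nop14 (r = 0.983) and Wdr77 (r = 0.980). Clcf1, a cytokine gene of the interleukin 6 family that was close to Fos, was at 18.3 ± 1.10 CPM (SD, n = 3) in vehicle, 179 ± 1.19 in FSK4h and 8.80 ± 1.12 in Rosi3D. Jund spanned less than 1 and was left out.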

How the data were processed

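RNA of 15 libraries was depleted of ribosomal RNA and sequenced, per the labels' protocols. The table deposited by the authors gives raw counts per gene symbol beside a gene length. The submitters' processing notes name fastp, STAR and featureCounts on GRCm38 (mm10). The sources used here give no version or annotation and no setting for strand or pairs. Columns name a group and a running number (S1 to S15), not the labels' replicate number, so no column was tied to a replicate number.

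Counts were tested in R 4.3.3 with edgeR 4.0.16: filterByExpr, TMM, robust quasi-likelihood fit of 1 mean per group over all 15 libraries, Benjamini-Hochberg adjustment over 14421 genes. SE is the log2 fold change over the square root of F, and a 95% interval uses the t quantile of the same fit. The scripts were tested on simulated data. DESeq2 1.42.0, other scalings and filters, halved counts and leaving out each library were alternatives. More genes had a count of 2 (721 to 907 per library) than of 1 (407 to 539), so the 1 ratio of low counts given uses counts divided by 2. Its interval covers counting error only. Positions come from GENCODE vM21 and promoter sequences from RefSeq. The genes and lists were chosen with earlier results of these data known. From each list were named up to 3 called genes with the largest rise and fall at 4 h and up to 2 in other comparisons, except an item that is not reported here. Srf, Egr3 at 1 day, Jdp2 and Mmp13 beyond that rule, and the neighbours whose levels are given, were picked after their values were seen. The 3 nearest genes by r were named for each member.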

Additional observations from a re-analysis of the deposited data

Results flagged for a closer look

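Several of the genes were called in opposite directions against vehicle under 2 treatments, with the difference between the treatments itself called in edgeR's quasi-likelihood test. Between FSK4h and FSK3D this held for Fosb (difference -4.11 ± 0.43, adjusted p = 3.66e-09), Fosl1 (-3.22 ± 0.13, adjusted p = 2.20e-21), Jun (-0.81 ± 0.0631, adjusted p = 7.25e-13), Egr1 (-1.99 ± 0.0918, adjusted p = 2.14e-19) and Egr2 (-2.40 ± 0.12, adjusted p = 5.19e-18), which were higher than vehicle at 4 h and lower at 3 days. Among these 5 genes, the calls at 3 days of Fosb, Fosl1 and Jun were lost without single libraries. Egr1 (-1.49 ± 0.0865, adjusted p = 2.51e-16) and Egr2 (-2.31 ± 0.12, adjusted p = 1.63e-17) had already turned at 1 day. Fosl1 turned between 1 and 3 days (-1.62 ± 0.13, adjusted p = 2.03e-12). Fosl2 was higher than vehicle after 3 days of forskolin and lower after 3 days of rosiglitazone (1.02 ± 0.0450, adjusted p = 2.29e-19), and its call against vehicle at 3 days of forskolin was lost without vehicle S3 (0.11, adjusted p = 0.0656). All 3 libraries of each group lay on the side of vehicle that the call gives. How many of all tested genes turn in this way was not counted, so whether turning is unusual is not known. Against vehicle, 28.4% of all tested genes were called higher at 4 h, and 19.5% higher and 20.7% lower at 1 day. At 3 days 25.9% were higher and 27% lower with forskolin, and 32% lower with rosiglitazone.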

How the results depend on the processing

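No paired analysis was possible because the columns of the count table carry no replicate numbers of the labels. Over the settings that keep all libraries, 627 of 639 log2 fold changes of the 10 genes kept their direction and their side of the threshold. Library size alone turned 2 values that were not called, Jun in FSK1D against vehicle (-0.00200) and Jund in FSK1D against FSK4h (0.10). With each library left out in turn, 451 of 480 values kept both, and the cause of the other changes was not tested. The values that turned were not called: Fos in FSK3D against vehicle (-0.29 to 0.0140), Jund (-0.22 to 0.0990), Atf3 (-0.24 to 0.0329) and Fosb (-1.07 to 0.0250) in FSK3D against Rosi3D, Jund in FSK1D against FSK4h (-0.10 to 0.00670) and Atf3 in FSK3D against FSK1D (-0.0899 to 0.18). The number of the 10 genes called in FSK3D against vehicle ran from 4 to 9 with a library left out, against 7 with all. For the other comparisons the number of the 10 genes called, and for all comparisons the number of all genes called, stayed within 1.5 times the reported count under every setting, DESeq2 included. Fosb, with as few as 2 counts in a library, is the gene whose precision depth limits most.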
